A study of Mus musculus with 12 samples.

Results

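Interferon-stimulated genes were followed in mouse regulatory T cells (Treg) labelled either as wild type (WT) or as conditional knockout (cKO) for Kdm2b. Its product is a histone demethylase that also serves as a subunit of a Polycomb repressive complex. Treg are the CD4 T cells, marked by the transcription factor Foxp3, that keep other immune cells in check. The genes are a list of 39 known interferon-induced genes, and 39 of 39 were found both in the in vivo table of 16232 genes and in the in vitro table of 24421 genes. Polyadenylated RNA was sequenced in 12 libraries, 2 in each of 6 groups, from cells of spleen and lymph nodes. The groups were cKO and WT Treg in vivo, cKO Treg in vitro with and without stimulation, and WT Treg in vitro with and without stimulation. Mouse strain and age, the Cre line behind the conditional allele, the stimulus and its duration, and the sorting of the cells are not given in the sources used here. Whether the replicates were separate animals or cultures is not given either, so p-values measure the spread between these libraries, which may be technical.

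Interferons are cytokines that put cells into an antiviral state. Type I interferons act through a transcription complex that includes STAT2 and IRF9 and binds a DNA element called ISRE, and the response to interferon gamma runs through a different element called GAS. The induced proteins sense foreign nucleic acid, degrade or sequester viral RNA, tag proteins with the ubiquitin-like ISG15, attack the vacuoles of intracellular microbes and, through IRF7, IRF9 and STAT2, amplify the signal. In T cells the same pathways shape activation and differentiation, and interferons can alter how strongly Treg suppress.

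The sequence elements are shown first, since the list is defined by how its genes are switched on. RefSeq promoters of 300 bases, from 250 before to 50 after the start of transcription (build GRCm38.p6), were available for 31 of the 39 members; Oas2, Usp18, Dhx58, Zbp1, Rtp4, Parp9, Parp14 and Ly6e had none. The core of the ISRE was searched as GAAA, any 2 bases and GAAA, or as TTTC, any 2 bases and TTTC on the other strand, and the GAS as TTCNNNGAA, which reads the same on both strands; matches may overlap. An ISRE match stood in the promoter of 17 of the 31 members (54.8%), against 3.99% of 27025 genes in the promoter table. A GAS match stood in 8 members (25.8%), against 9.55% of genes, and 6 members (19.4%) held both, against 0.54%. A match is a stretch of letters, with nothing here on what binds it. Stretches from 8 members follow, on the strand of the gene and with 15 bases on either side of the outermost matches. Capitals mark the matches. Isg15, Rsad2 and Ifit1 are shown because their levels set single libraries apart, and the GTPase genes because they include Gbp2, which was called on stimulation in cKO, Gbp3, which stood lower in cKO, and a pair with both elements side by side.
Isg15, chr4:156200860-156200911, minus strand: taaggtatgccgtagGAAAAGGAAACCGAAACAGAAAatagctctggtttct
Rsad2, chr12:26456548-26456587, minus strand: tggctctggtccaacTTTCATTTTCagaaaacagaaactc
Ifit1, chr19:34640770-34640828, plus strand: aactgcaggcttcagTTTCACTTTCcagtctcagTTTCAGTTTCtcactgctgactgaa
Igtp, chr11:58199496-58199546, plus strand: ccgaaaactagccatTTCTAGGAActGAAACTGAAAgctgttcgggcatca
Irgm2, chr11:58214887-58214937, plus strand: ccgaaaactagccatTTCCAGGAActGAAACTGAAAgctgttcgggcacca
Gbp2, chr3:142620589-142620628, plus strand: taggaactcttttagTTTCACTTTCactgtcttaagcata
Gbp3, chr3:142559984-142560029, plus strand: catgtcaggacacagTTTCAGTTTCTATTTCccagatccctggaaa
Gbp7, chr3:142530215-142530307, plus strand: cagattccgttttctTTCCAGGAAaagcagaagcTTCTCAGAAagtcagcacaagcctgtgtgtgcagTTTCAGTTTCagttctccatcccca
Isg15 held 3 overlapping ISRE matches and Ifit1 held 2 separate ones. Igtp and Irgm2 each held a GAS match followed at once by an ISRE match. Among the 7 interferon-inducible GTPase genes, 6 had an ISRE match, and Ifi47 had none in this window. Isg20, Oasl2 and Cmpk2, whose levels also set cKO replicate 1 apart in vitro, had a promoter but no ISRE match. Isg20 held a GAS match.

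The values are FPKM, fragments scaled to gene length and library size. Their read depth is unknown, so no counting interval was computed. The targeted gene, Kdm2b, stood at 146 and 125 FPKM in the cKO libraries and at 113 and 110 FPKM in the WT libraries in vivo. In vitro it stood at 66.3 and 70.5 FPKM in stimulated cKO, 89.8 and 97.4 in unstimulated cKO, 74.5 and 71.7 in stimulated WT, and 84.9 and 94.9 in unstimulated WT. A level over the whole gene does not show a deleted part of a transcript, so it checks no label, and cKO and WT below stand for the libraries labelled so. The 8 Treg markers looked at, Foxp3, Il2ra and Ctla4 among them, were above 0 in each of the 12 libraries. Foxp3 was at 114 and 117 FPKM in cKO and 107 and 106 FPKM in WT in vivo. In vitro it was lower in every cKO library than in every WT library of the same condition, at 238 and 268 FPKM in stimulated cKO and 529 and 696 FPKM in stimulated WT (log2 fold change -1.26, limma adjusted p = 0.0769), and at 71.5 and 82.6 FPKM in unstimulated cKO and 194 and 189 FPKM in unstimulated WT (-1.31, adjusted p = 0.0636).

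Transcripts of other cells moved with the groups. In bulk RNA, fewer cells of a type and less RNA per cell cannot be told apart. The 11 B cell markers measured summed to 19.8 and 28.8 FPKM in cKO and to 60.5 and 77.4 FPKM in WT in vivo. In vitro they summed to between 173 and 224 FPKM in the cKO libraries and between 37.6 and 54.2 FPKM in the WT libraries, with Fcrla at 0 in both WT replicate 2 libraries and Cd22 and Cr2 at 0 in the stimulated one. Haemoglobin genes made up 10.3% and 11.6% of all FPKM in the stimulated and unstimulated cKO replicate 1 libraries, 1.86% and 1.33% in the cKO replicate 2 libraries, and 0.00678% to 0.548% in WT. The 14 myeloid markers summed to 421 and 575 FPKM in the stimulated and unstimulated cKO replicate 1 libraries, against 219 and 292 FPKM in cKO replicate 2 and 213 to 311 FPKM in WT. The 7 markers of plasmacytoid dendritic cells, known for making type I interferon, that are not members summed to 38.5 and 51.2 FPKM in cKO and 37.9 and 35.1 FPKM in WT in vivo. In vitro they summed to 30.4 and 28.0 FPKM in stimulated cKO, 41.0 and 38.1 FPKM in unstimulated cKO, 27.6 and 17.8 FPKM in stimulated WT, and 26.8 and 25.5 FPKM in unstimulated WT. Their sum was higher in every cKO library than in every WT library of each setting, by a narrow gap in vivo and stimulated, and its part in the members' levels was not tested. Siglech, a defining marker, went the other way from the sum in vivo, at 0.31 and 0.41 FPKM in cKO and 1.01 and 0.70 FPKM in WT. It was at 1.01 FPKM or less in every library, and listed at 0 in 3 of the 4 WT libraries in vitro. The WT replicate 2 libraries in vitro listed 13273 and 12379 genes at 0, where the remaining in vitro libraries listed 9102 to 9857.

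The list covered a wide range of levels. Ly6e, which encodes a surface protein held by a lipid anchor, was the member with the highest level in each library, at 373 and 438 FPKM in cKO and 456 and 512 FPKM in WT in vivo, and between 160 and 356 FPKM in vitro. Ifi44 was the lowest in vivo, at 0.68 and 0.88 FPKM in cKO and 1.05 and 0.72 FPKM in WT, and was listed at 0 in the 4 WT libraries in vitro. Members at 1 FPKM or more numbered 38 or 39 in each in vivo library and 29 to 37 in each in vitro library. The lowest of these counts, 29 and 31, belonged to the stimulated and unstimulated WT replicate 2 libraries.

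**Figure D1:**
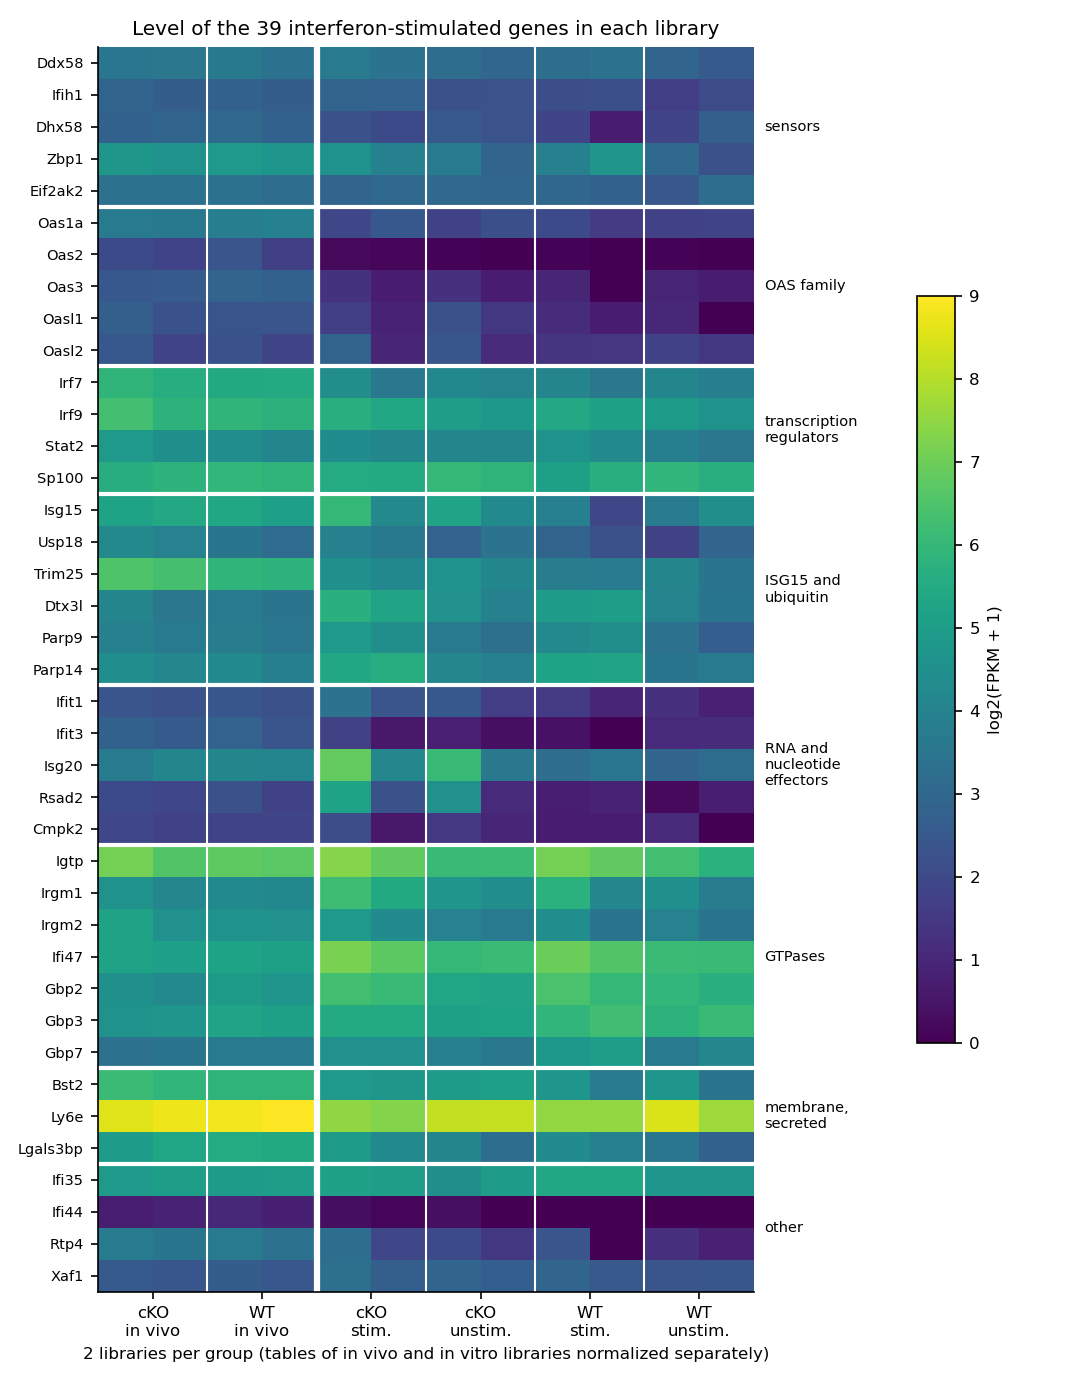
Level of each of the 39 members, as log2(FPKM + 1) in colour, in the 12 libraries, grouped by role from sensors to other induced genes; the thick line separates the in vivo and in vitro tables, which were normalized separately. Ly6e is bright throughout, Oas1a, Oas2, Oas3 and Oasl1 are darker in unstimulated culture than in vivo, and Isg20 and Rsad2 stand out in the first library of both cKO groups in vitro.

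Levels in the animal and in culture come from tables normalized separately, so they are set side by side with no test. For 21 of the 39 members the 4 in vivo libraries all lay above the 4 unstimulated libraries, for 2 they all lay below, and for 16 the ranges overlapped. Among the 35 members tested in both tables these counts were 17 above and 2 below, beside 21.6% and 18.9% of the 9424 genes tested in both. The oligoadenylate synthetase family is named for enzymes that make the messenger that activates RNase L. It included 4 of 5 members in the first class. Of these, Oas1a and Oasl1 were tested in both tables. Oas2 and Oas3 averaged under 1 FPKM in vitro and were not tested there. Oas2 had 3.03 and 2.49 FPKM in cKO and 4.17 and 2.25 FPKM in WT in vivo, against at most 0.0637 FPKM in an unstimulated library and at most 0.164 FPKM in a stimulated one. Irf7, the factor that drives transcription of the interferon alpha genes, had a median of 46.3 FPKM in vivo and 16.1 FPKM in unstimulated culture. Trim25, a ubiquitin ligase that acts on the sensor RIG-I, had medians of 68.8 FPKM in vivo and 16.5 FPKM in unstimulated culture. The 2 members that stood lower in vivo were GTPase genes, Ifi47 with medians of 34.8 FPKM in vivo and 68.7 FPKM unstimulated, and Gbp2 with 23.6 FPKM in vivo and 45.1 FPKM unstimulated.

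In vivo, the cKO and WT libraries had similar levels of most members, and 0 of the 38 members tested passed. The test was limma on log2(FPKM + 1) over the 10415 genes that averaged 1 FPKM or more, with a Benjamini-Hochberg adjusted p under 0.05 as the threshold; over all genes it called 0.374%. Unadjusted p was under 0.05 for 8 members and for 1350 of all genes (13.0%). The median log2 fold change, cKO over WT, was 0.04 over the members and -0.02 over all genes, with 20 of 38 members above 0, beside 46.9% of all genes. Groups did not overlap for 5 members that were higher in cKO and 8 that were lower, beside 21.5% and 25.8% of all genes. The member with the smallest adjusted p was Trim25.

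Trim25 and Usp18, of the ISG15 system and ubiquitin ligase role, were the members with the largest log2 fold changes above 0 in vivo. Trim25 had 91.6 and 79.6 FPKM in cKO and 57.9 and 54.9 FPKM in WT. Both cKO libraries lay above both WT libraries (log2 fold change 0.59, SE 0.11, adjusted p = 0.0901). Usp18, the protease that removes ISG15 and also restrains the type I interferon receptor, had 18.1 and 14.8 FPKM in cKO and 10.2 and 7.84 FPKM in WT. The groups were again apart, at 0.80 (SE 0.16, adjusted p = 0.116). All 6 members of this role had a value above 0, the other 4 (Isg15, Dtx3l, Parp9 and Parp14) between 0.11 and 0.24 with overlapping groups.

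The guanylate-binding protein genes Gbp2, Gbp3 and Gbp7, large GTPases that coat and break up pathogen vacuoles, stood lower in cKO in vivo. Gbp3 had 23.4 and 25.1 FPKM in cKO and 36.8 and 33.5 FPKM in WT (log2 fold change -0.52, SE 0.11, adjusted p = 0.13). Gbp2 had 22.0 and 17.8 FPKM in cKO and 28.9 and 25.1 FPKM in WT, at -0.43 (SE 0.14, adjusted p = 0.294). Gbp7 had 9.59 and 10.1 FPKM in cKO and 12.4 and 12.1 FPKM in WT, at -0.29 (SE 0.11, adjusted p = 0.358). The groups did not overlap for any of the 3, and none of the 3 passed. The smaller immunity-related GTPases Igtp, Irgm1, Irgm2 and Ifi47 had overlapping groups and values between -0.03 and 0.31.

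Among the remaining roles, the sensors and the RNA and nucleotide effectors had values near 0 in vivo. The 5 sensors of nucleic acid (Ddx58, which encodes RIG-I, Ifih1, Dhx58, Zbp1 and the kinase gene Eif2ak2) lay between -0.14 and 0.06, and the 5 RNA and nucleotide effectors (Ifit1, Ifit3, Isg20, Rsad2 and Cmpk2) between -0.18 and 0.08, with overlapping groups for all 10. The 4 transcription factors and regulators had a median of 0.25, with 2 higher and 1 lower in both cKO libraries than in both WT libraries. Stat2 stood at 27.7 and 21.5 FPKM in cKO and 20.3 and 16.7 FPKM in WT, and Irf7 at 58.3 and 48.0 FPKM in cKO and 43.2 and 44.6 FPKM in WT, both with groups apart. The 3 membrane and secreted proteins had a median of -0.26, with 1 higher and 2 lower. Oas1a, Oas3, Sp100, Ly6e and Lgals3bp had lower values in both cKO libraries than in both WT libraries, by 0.21 to 0.37 on the log2 scale, with an adjusted p of 0.336 or more for each.

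The in vivo count depended on single libraries. It was 14 without the second cKO library in table order, 9 higher and 5 lower, where 19.2% of all genes were called. It was 3 without the first cKO library (Trim25 higher, Gbp2 and Gbp3 lower), where 4.07% were, and 0 without either WT library, where 0.278% and 0.164% were. Each of these fits leaves 1 library in a group and takes the spread from the other group alone. The adjusted p of Trim25 was 0.00365 and 0.0253 without a cKO library and 0.417 and 0.631 without a WT library, and that of Gbp3 was 0.0104 and 0.0489 without a cKO library and 0.894 and 0.634 without a WT library.

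**Figure D2:**
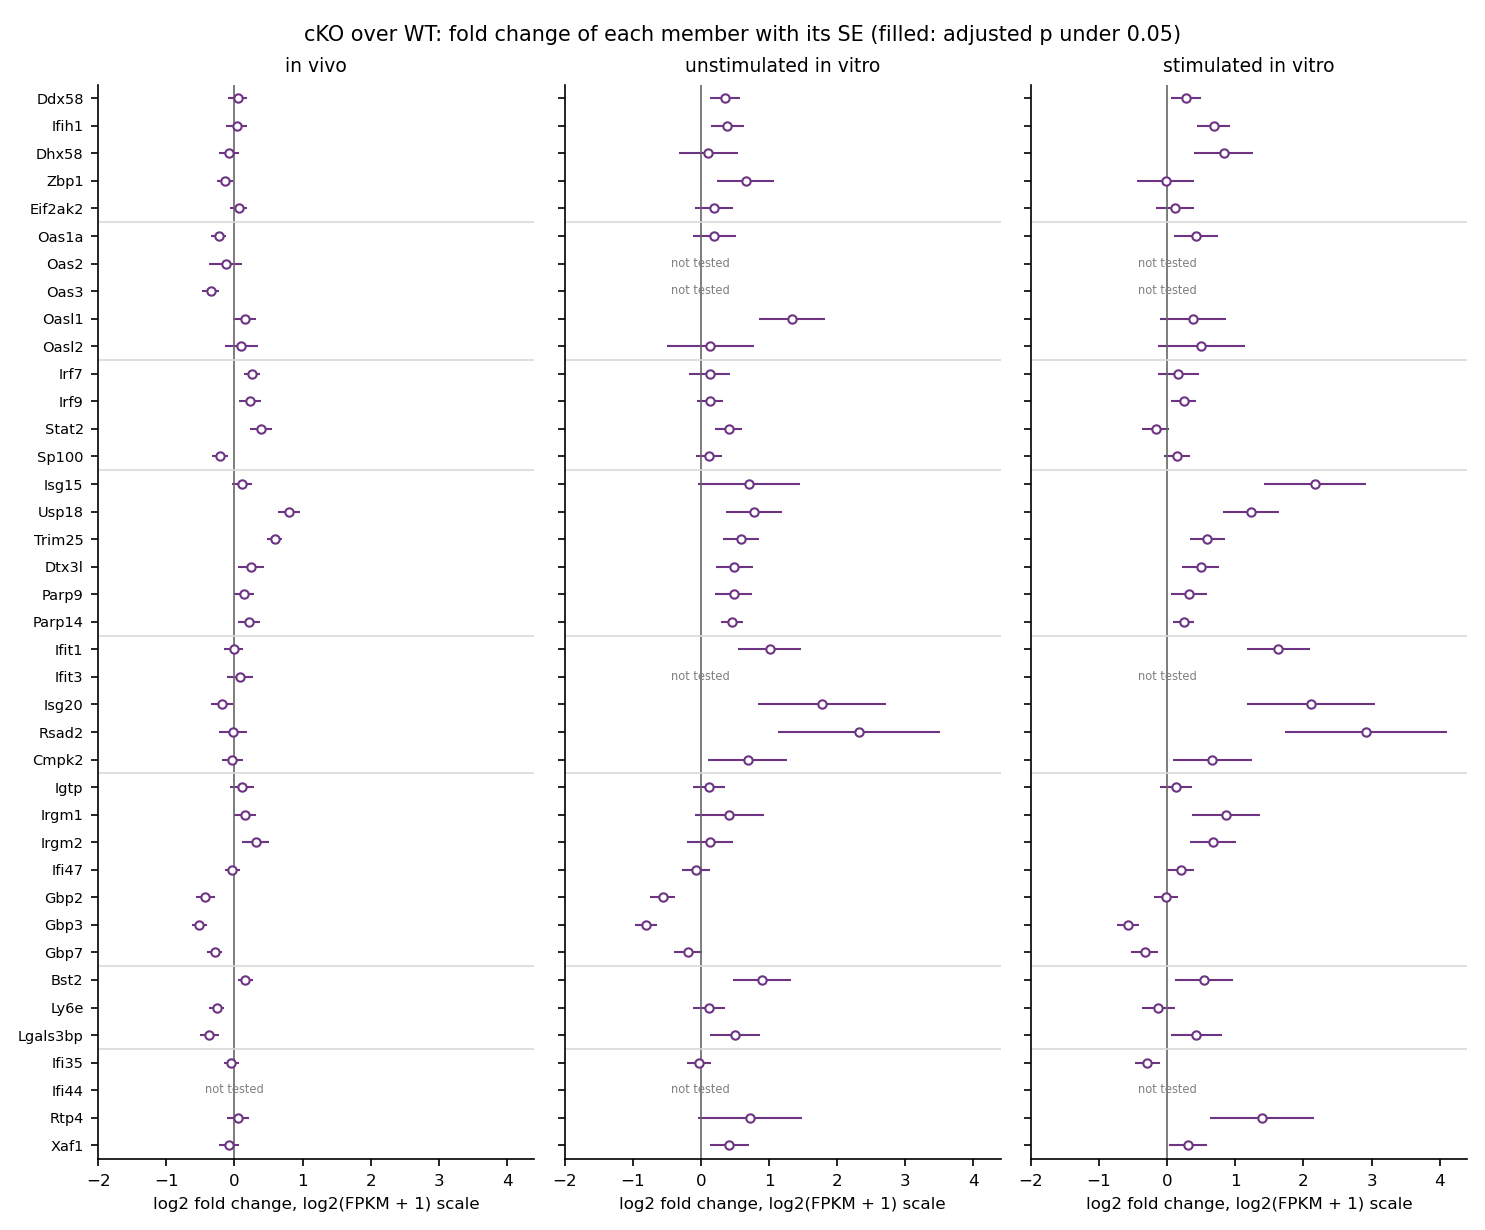
Log2 fold change of cKO over WT on the log2(FPKM + 1) scale for each member, with bars of 1 SE, in vivo, unstimulated and stimulated in vitro (2 libraries per group); filled points would mark an adjusted p under 0.05. There are no filled points; Trim25 lies to the right of 0 and Gbp3 to the left in each panel, and the bars of Rsad2, Isg20 and Isg15 are wide in vitro.

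In unstimulated culture more members stood above WT than in vivo, and again 0 of the 35 tested passed. Oas2, Oas3, Ifit3 and Ifi44 were below the filter on low values in vitro. Over all genes limma called 0.0747%, and the unadjusted p was under 0.05 for 4 members and for 703 genes in all (6.56%). The median log2 fold change was 0.41 over the members and 0.02 over all genes, with 30 of 35 members above 0, beside 53.0% of all genes. Groups did not overlap for 12 members higher in cKO and 2 lower, against 17.8% and 16.6% of all genes. The lower Foxp3 level and the higher B cell marker sum of cKO, given above, stand in this contrast and in the stimulated one, and their part in the members' levels was not tested. The 8 genes called in unstimulated culture included the B cell markers Cd79a and Cd79b and the haemoglobin gene Hbb-bs, all higher in cKO. Of the 2 genes called in stimulated culture, 1 was Cd79b, again higher in cKO.

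Gbp3 had the smallest p among the members in unstimulated cells, as it was also lower in cKO in vivo. It stood at 33.5 and 36.3 FPKM in cKO and 56.1 and 67.2 FPKM in WT (log2 fold change -0.80, SE 0.16, adjusted p = 0.197). Gbp2 stood at 38.1 and 37.4 FPKM in cKO and 60.6 and 52.0 FPKM in WT (-0.56, SE 0.18, adjusted p = 0.543). Both genes were lower in each cKO library than in each WT library. Parp14, an ADP-ribosyltransferase of the macrodomain family, had 16.9 and 14.3 FPKM in cKO and 10.4 and 11.7 FPKM in WT (0.46, SE 0.16, adjusted p = 0.638). Trim25 had 23.2 and 16.7 FPKM in cKO and 16.3 and 9.95 FPKM in WT (0.59, SE 0.26, adjusted p = 0.779). The cKO libraries were above the WT libraries for both, though for Trim25 the lower cKO and higher WT libraries were close together.

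In stimulated culture the picture was alike, with 0 of 35 members passing, where limma called 0.0187% of all genes and the unadjusted p was under 0.05 for 6 members and 1508 genes (14.1%). The median log2 fold change was 0.38 over the members and -0.05 over all genes, and 28 of 35 members lay above 0, beside 44.9% of all genes. Groups did not overlap for 13 members higher in cKO and 4 lower, beside 18.5% and 29.8% of all genes. All 6 members of the ISG15 and ubiquitin ligase role were among the 13.

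Gbp3 was again the lower member with the smallest p in stimulated cells, at 44.0 and 44.6 FPKM in cKO and 59.6 and 73.9 FPKM in WT (log2 fold change -0.57, SE 0.16, adjusted p = 0.198). Ifit1, which binds foreign RNA by its 5′ end, had 9.64 and 4.22 FPKM in cKO and 1.97 and 0.947 FPKM in WT (1.63, SE 0.46, adjusted p = 0.198). Usp18 had 14.4 and 11.5 FPKM in cKO and 6.38 and 3.71 FPKM in WT (1.23, SE 0.41, adjusted p = 0.248). These groups were apart for all 3 genes. Isg15 had 62.2 and 17.7 FPKM in cKO and 14.2 and 2.82 FPKM in WT (2.17, SE 0.75, adjusted p = 0.258), apart by a narrow gap between the lower cKO and the higher WT library. Gbp2, lower in unstimulated cKO cells, was level in stimulated ones, at 76.4 and 66.4 FPKM in cKO and 84.2 and 62.0 FPKM in WT (-0.02, SE 0.18).

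Across the 3 settings, which share no library, 2 members were higher in every cKO library than in every WT library of the same setting, and 1 was lower. Trim25 had a log2 fold change of 0.59 in each setting, and in stimulated culture stood at 21.9 and 17.5 FPKM in cKO and 13.1 and 12.3 FPKM in WT. Its unstimulated value was 0.26 without WT replicate 2, 0.92 without WT replicate 1 and 0.37 without cKO replicate 1. Bst2, the gene of tetherin, which holds budding viruses at the cell surface, had 0.16 in vivo, 0.90 unstimulated and 0.54 stimulated. Stimulated, the cKO libraries had 27.3 and 25.9 FPKM and the WT libraries 25.8 and 12.5 FPKM. Unstimulated, they had 29.9 and 32.5 FPKM in cKO and 25.8 and 10.1 FPKM in WT. In both conditions the low library was WT replicate 2. Bst2 is also a marker of plasmacytoid dendritic cells, whose other markers summed higher in cKO in each setting. The part of those cells in its level was not tested. Gbp3 was the member that stood lower in cKO in all 3 settings. Among the 9424 genes tested in both tables, 2.42% were higher and 3.65% lower in this way, and the 2 and 1 of 35 members are read only as values beside that background.

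**Figure D3:**
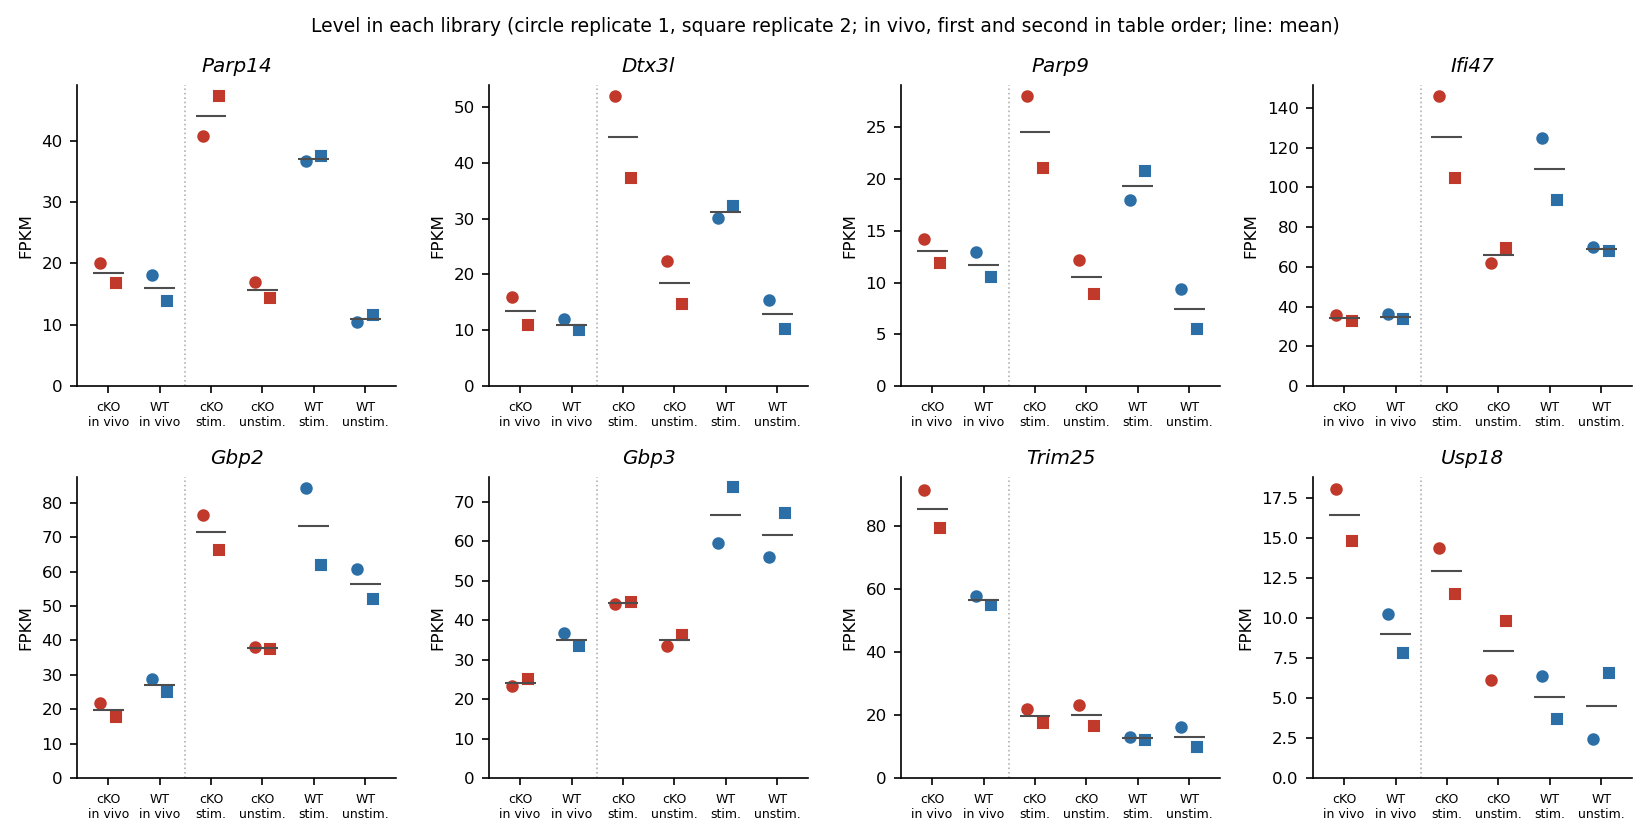
FPKM of 8 members in each library, on linear axes from 0, with cKO in red and WT in blue and a line at each mean; the dotted line separates the tables. Parp14, Dtx3l, Parp9, Ifi47 and Gbp2 are higher in stimulated than in unstimulated libraries of both genotypes, Gbp3 is lower and Trim25 higher in cKO in each setting, and Usp18 overlaps only in unstimulated culture.

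The libraries of cKO replicate 1 stood apart in vitro for the antiviral effectors. Rsad2, the gene of viperin, which makes a nucleotide that halts viral RNA synthesis, had 36.3 FPKM in stimulated cKO replicate 1 and 3.68 FPKM in replicate 2. In unstimulated cKO it had 22.3 FPKM in replicate 1 and 1.12 FPKM in replicate 2, against 0.678 and 0.811 FPKM in stimulated WT and 0.161 and 0.706 FPKM in unstimulated WT. Both cKO replicates lay above WT, but by very different amounts. Isg20, an exonuclease that degrades viral RNA, had 112 and 16.9 FPKM in stimulated cKO and 67.1 and 11.1 FPKM in unstimulated cKO, against 8.34 and 10.7 FPKM in stimulated WT and 6.70 and 8.15 FPKM in unstimulated WT. Rsad2 and Isg20 are described here after their values were seen.

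Isg15, a ubiquitin-like modifier, and Oasl2, of the oligoadenylate synthetase family, were also higher in cKO replicate 1 than in replicate 2, in both conditions. Isg15 had 62.2 and 17.7 FPKM in stimulated and 36.9 and 18.9 FPKM in unstimulated cKO, where the WT libraries had 14.2 and 2.82 FPKM stimulated and 12.0 and 20.7 FPKM unstimulated. Oasl2 had 6.31 and 0.951 FPKM in stimulated and 4.31 and 1.14 FPKM in unstimulated cKO, so that replicate 2 lay below the 4 WT libraries, which held 1.64 to 2.43 FPKM. The 5 RNA and nucleotide effectors summed to 164 and 25.8 FPKM in stimulated cKO and 96.6 and 15.6 FPKM in unstimulated cKO, against 12.0 and 13.1 FPKM in stimulated WT and 10.5 and 10.9 FPKM in unstimulated WT. The GTPases did not show this in unstimulated cells, where their sum was 256 FPKM in cKO replicate 1 and 257 FPKM in replicate 2.

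The gap between cKO replicates was over 1 on the log2(FPKM + 1) scale for 3 of 35 members in unstimulated cKO (Oasl2, Isg20 and Rsad2), where 1.62% of all genes exceeded 1 in that direction, and for 7 in stimulated cKO (Oasl2, Isg15, Ifit1, Isg20, Rsad2, Cmpk2 and Rtp4), where 1.99% did. In WT it was over 1 for 2 members unstimulated (Cmpk2 and Bst2), beside 6.07% of all genes, and for 4 stimulated (Dhx58, Isg15, Irgm1 and Rtp4), beside 8.63%. The median member gap was 0.40 in stimulated and 0.23 in unstimulated cKO, and 0.27 in stimulated and 0.30 in unstimulated WT. Over all genes the median gap was 0.01 in stimulated and 0.05 in unstimulated cKO, and 0.05 in stimulated and 0.12 in unstimulated WT. Replicate 1 thus stood higher over the members in both genotypes. The cKO replicate 1 libraries also held the high haemoglobin and myeloid marker values given above, whose part in the members' levels was not tested. Without both cKO replicate 1 libraries the median member fold change of cKO over WT was 0.23 unstimulated and 0.14 stimulated, and without both WT replicate 2 libraries, those with the most genes at 0, it was 0.18 unstimulated and 0.20 stimulated, in place of 0.41 and 0.38 with all libraries. Without both cKO replicate 1 libraries that of Rsad2 was 0.59 and 1.42, in place of 2.32 and 2.92, and Isg20 was at 0.53 unstimulated and 0.78 stimulated, in place of 1.78 and 2.11.

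**Figure D4:**
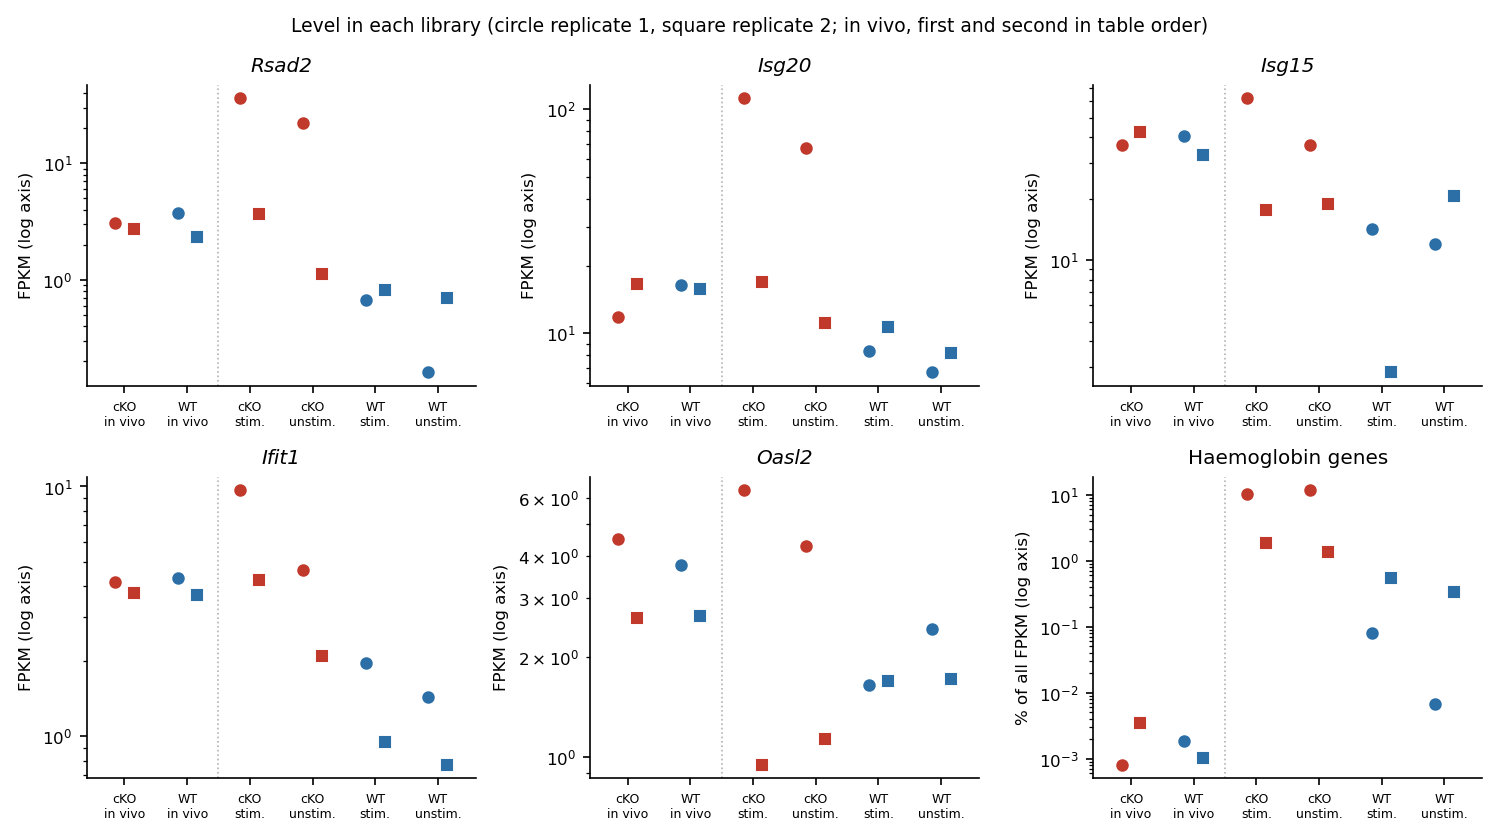
FPKM of 5 members and the share of FPKM taken by haemoglobin genes, in percent, in each library, on log axes; circles are replicate 1 and squares replicate 2 in vitro. The red circles of both cKO groups in vitro are the highest points of Rsad2, Isg20, Ifit1 and Oasl2 among the in vitro libraries and the highest of the haemoglobin share in all 12.

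Stimulation raised a few members, led by Parp14. In cKO cells 4 of 35 members were called, all higher in stimulated cells (Parp14, Dtx3l, Gbp2 and Ifi47), where limma called 2.08% of all genes higher and 4.58% in either direction. In WT cells 1 member, Parp14, was called higher, beside 1.61% of all genes higher and 2.43% in either direction. The median log2 fold change, stimulated over unstimulated, was 0.61 over the members and -0.14 over all genes in cKO, and 0.31 and -0.04 in WT. Members above 0 numbered 27 of 35 in cKO and 28 of 35 in WT, beside 36.7% and 45.7% of all genes. Scaling moved the median of all genes in the cKO contrast by 0.11 to 0.13, to between -0.03 and -0.01, and the member median was then 0.71 to 0.73.

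The 3 genes Parp14, Parp9 and Dtx3l lie close together on chromosome 16, between 35832874 and 35972605 (GRCm38, GENCODE). Parp14 had 40.8 and 47.4 FPKM in stimulated cKO and 16.9 and 14.3 FPKM in unstimulated cKO (log2 fold change 1.44, SE 0.16, adjusted p = 0.00555). In WT it had 36.7 and 37.5 FPKM stimulated and 10.4 and 11.7 FPKM unstimulated (1.67, SE 0.16, adjusted p = 0.00385). Stimulated libraries were thus far above unstimulated ones in both genotypes. The call in WT held in each of the 21 alternatives run, with an adjusted p between 0.0025 and 0.0476, and the call in cKO in 17 of 21. It was lost without cKO unstimulated replicate 2 (adjusted p = 0.0873), cKO stimulated replicate 1 (0.0638), cKO stimulated replicate 2 (0.0806) and both cKO replicate 1 libraries (0.252), with fold changes of 1.33 to 1.66.

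Dtx3l and Parp9 encode a ubiquitin ligase and its macrodomain partner, which work as a complex. Dtx3l had 52.0 and 37.4 FPKM in stimulated cKO and 22.4 and 14.6 FPKM in unstimulated cKO (1.24, SE 0.27, adjusted p = 0.0473). In WT it had 30.1 and 32.2 FPKM stimulated and 15.5 and 10.3 FPKM unstimulated (1.24, SE 0.27, adjusted p = 0.0613), so the size was equal in both genotypes and the threshold fell between them. Parp9 had 28.0 and 21.0 FPKM in stimulated cKO and 12.1 and 8.93 FPKM in unstimulated cKO (1.15, adjusted p = 0.0605). In WT it had 18.0 and 20.7 FPKM stimulated and 9.33 and 5.47 FPKM unstimulated (1.31, adjusted p = 0.0548). The annotated genes overlap on opposite strands and strand-specific counting is not stated, so reads in the shared stretch cannot be told apart.

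The 7 interferon-inducible GTPase genes all had a log2 fold change above 0 on stimulation, from 0.34 to 1.26 in cKO and from 0.11 to 0.95 in WT. Gbp2 had 76.4 and 66.4 FPKM in stimulated cKO and 38.1 and 37.4 FPKM in unstimulated cKO (0.90, SE 0.18, adjusted p = 0.0368). In WT the values were 84.2 and 62.0 FPKM stimulated and 60.6 and 52.0 FPKM unstimulated (0.36, SE 0.18, adjusted p = 0.327). Stimulated libraries were higher in both genotypes, and the unstimulated level was lower in cKO. Ifi47 had 146 and 105 FPKM in stimulated cKO and 62.1 and 69.6 FPKM in unstimulated cKO (0.90, SE 0.20, adjusted p = 0.0492), against 125 and 93.5 FPKM in stimulated WT and 70.1 and 67.8 FPKM in unstimulated WT (0.64, SE 0.20, adjusted p = 0.149). Its annotated span overlaps that of an olfactory receptor gene on the same strand.

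Igtp and Gbp7 did not pass in either genotype although their groups were apart in both. Igtp had 165 and 112 FPKM in stimulated and 68.3 and 70.0 FPKM in unstimulated cKO (0.96, adjusted p = 0.0677), and 137 and 111 FPKM in stimulated and 76.8 and 52.5 FPKM in unstimulated WT (0.95, adjusted p = 0.0938). The annotated spans of Igtp and Irgm2 overlap on the same strand, so their reads may be shared. Gbp7 had 22.4 and 22.7 FPKM in stimulated and 14.0 and 11.2 FPKM in unstimulated cKO (0.80, adjusted p = 0.0649), and 26.5 and 30.9 FPKM in stimulated and 12.5 and 16.8 FPKM in unstimulated WT (0.94, adjusted p = 0.0557). The summed level of the 7 genes was 555 and 412 FPKM in stimulated and 256 and 257 FPKM in unstimulated cKO, and 506 and 398 FPKM in stimulated and 313 and 279 FPKM in unstimulated WT.

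Members of other roles differed among themselves. Irf7, at -0.10 in cKO and -0.14 in WT, Trim25, at -0.01 in both, and Oas1a, at 0.22 in cKO and 0.00 in WT, had values near 0 and overlapping groups. Isg15 was at 0.32 (SE 0.75) in cKO and -1.14 (SE 0.75) in WT, where 1 library had 2.82 FPKM. Zbp1, a sensor of left-handed nucleic acid that triggers necroptosis, had 23.8 and 14.4 FPKM in stimulated and 11.9 and 6.71 FPKM in unstimulated cKO, and 14.3 and 24.6 FPKM in stimulated and 7.54 and 3.66 FPKM in unstimulated WT (0.97 in cKO, adjusted p = 0.23, and 1.65 in WT, adjusted p = 0.0932). Ly6e had lower values with stimulation. It stood at 181 and 160 FPKM in stimulated and 291 and 297 FPKM in unstimulated cKO (-0.79, adjusted p = 0.107), and at 187 and 184 FPKM in stimulated and 356 and 204 FPKM in unstimulated WT (-0.54, adjusted p = 0.278).

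Groups did not overlap for 17 members higher in stimulated cKO and 4 lower, beside 20.7% and 44.1% of all genes, and for 16 higher and 4 lower in WT, beside 18.8% and 22.9%. In both genotypes at once this held for 13 members that were higher (11.2% of all genes) and 3 that were lower (16.7% of all genes). The 13 were Ddx58, Ifih1, Zbp1, Irf9, Dtx3l, Parp9, Parp14, Igtp, Ifi47, Gbp2, Gbp7, Lgals3bp and Ifi35, and the 3 were Dhx58, Sp100 and Ly6e. The 13 include 3 of the 5 sensors and 4 of the 7 GTPases. They include none of the 3 oligoadenylate synthetase family members or the 4 RNA and nucleotide effectors tested in vitro.

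**Figure D5:**
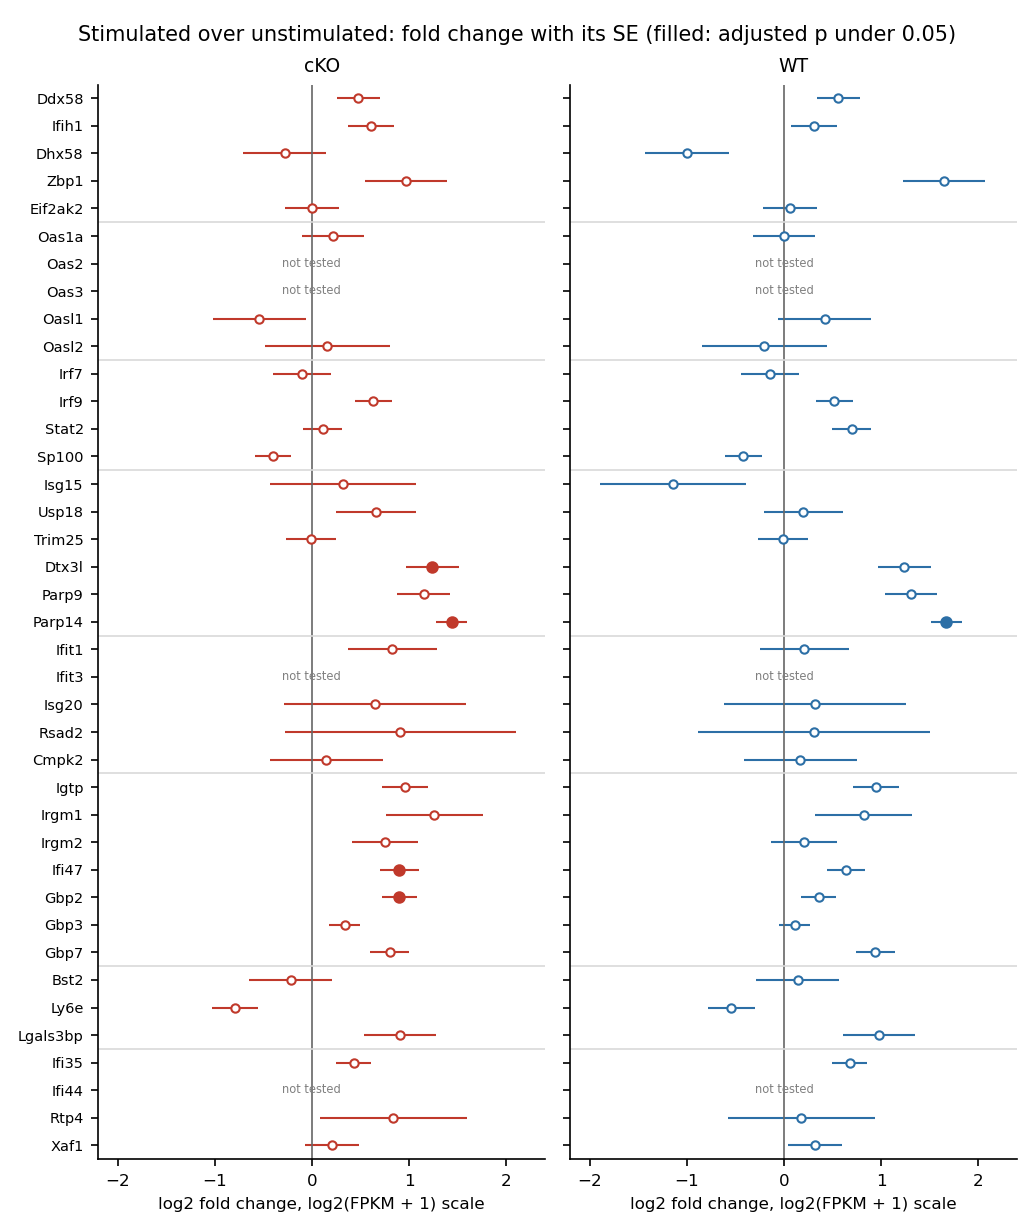
Log2 fold change of stimulated over unstimulated cells on the log2(FPKM + 1) scale for each member, with bars of 1 SE, in cKO and in WT (2 libraries per group); filled points mark an adjusted p under 0.05. Parp14, Dtx3l, Gbp2 and Ifi47 are filled in cKO and Parp14 in WT, and all 7 GTPase genes lie to the right of 0 in both panels.

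The difference between the genotypes in the response to stimulation was tested as an interaction, the response in cKO minus that in WT. It called 0 of 35 members and 0.0% of all genes, and the unadjusted p was under 0.05 for 0 members and 380 genes (3.55%). The median was 0.02 over the members, with 20 of 35 above 0, beside 41.5% of all genes. The members with the smallest p among those at 5 FPKM or more were Gbp2 (0.54, SE 0.25), Stat2 (-0.59, SE 0.28), Isg15 (1.47, SE 1.06) and Zbp1 (-0.68, SE 0.59), each with an adjusted p of 0.999. Stat2 had 19.7 and 16.3 FPKM in stimulated and 16.7 and 16.5 FPKM in unstimulated cKO, and 23.0 and 18.1 FPKM in stimulated and 13.8 and 10.8 FPKM in unstimulated WT. The groups overlapped in cKO and were apart in WT. With 0 genes called at all, the interaction does not show that Gbp2, Dtx3l and Ifi47, called in cKO alone, responded alike or differently in the genotypes.

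The number of members called in cKO rested on single libraries and on the variance model. It was 0 without cKO unstimulated replicate 2, cKO stimulated replicate 1, cKO stimulated replicate 2 or both cKO replicate 1 libraries, 1 (Parp14) without cKO unstimulated replicate 1, and 7 without either WT unstimulated replicate, where Ly6e was called lower. Of all genes, 0.00945% to 0.187% were called in the fits with 0 members, 0.743% in the fit with 1, and 6.16% and 6.02% in those with 7. In WT, the member median ran from 0.16 to 0.54 when 1 library was left out, in place of 0.31. Of the 21 alternatives, Gbp2 was called in 14, Dtx3l in 11 and Ifi47 in 10.

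Genes that make, receive and restrain the interferon signal were looked at through a list of 120 further genes of the pathway, of which 102 were tested in vivo and 99 in vitro. None was called between the genotypes in vivo, unstimulated or stimulated by limma, with an unadjusted p under 0.05 for 19, 12 and 19 of them, beside 13.0%, 6.56% and 14.1% of all genes. On stimulation in cKO, 6 were called higher and 1 lower, where 2.08% of all genes were called higher and 267 of 10710 lower. In WT, 5 were called higher, where 1.61% of all genes were. Of the interferon genes, Ifng, encoding interferon gamma, was the one of 11 that reached the filter. It had 5.96 and 5.11 FPKM in cKO and 8.49 and 6.57 FPKM in WT in vivo (-0.38, adjusted p = 0.387). In vitro it had 9.32 and 5.16 FPKM in stimulated and 2.48 and 3.53 FPKM in unstimulated cKO (1.01, adjusted p = 0.137), and 4.83 and 8.07 FPKM in stimulated and 2.82 and 2.57 FPKM in unstimulated WT (0.98, adjusted p = 0.182).

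The receptor chains for both kinds of interferon were expressed in every library. Ifngr1 was the highest of the 4 in each, at 702 and 557 FPKM in cKO and 505 and 602 FPKM in WT in vivo. In vitro it had 288 and 248 FPKM in stimulated and 334 and 286 FPKM in unstimulated cKO, and 455 and 397 FPKM in stimulated and 518 and 346 FPKM in unstimulated WT. The cKO libraries were below the WT libraries of the same condition in vitro (-0.67 stimulated, adjusted p = 0.232, and -0.45 unstimulated, adjusted p = 0.795). Ifngr2 lay above WT there, at 36.4 and 36.0 FPKM in stimulated cKO against 26.9 and 23.9 FPKM in stimulated WT (0.50, adjusted p = 0.208), and 34.2 and 33.6 FPKM in unstimulated cKO against 26.3 and 23.3 FPKM in unstimulated WT (0.44, adjusted p = 0.575). In vivo Ifngr2 was lower in cKO, at 90.9 and 97.6 FPKM against 106 and 110 FPKM in WT (-0.20, limma adjusted p = 0.428). Ifnar1 had 111 and 106 FPKM in cKO and 88.2 and 95.2 FPKM in WT in vivo (0.24, limma adjusted p = 0.36). In vitro Ifnar1 ranged from 25.0 to 45.5 FPKM. Ifnar2 ranged from 36.2 to 43.5 FPKM in vivo and from 17.8 to 25.9 FPKM in vitro.

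Irf1, a transcription factor that activates GTPase genes, had 129 and 86.5 FPKM in stimulated and 78.8 and 86.8 FPKM in unstimulated cKO, where the groups overlapped (0.35), and 161 and 85.5 FPKM in stimulated and 77.9 and 73.4 FPKM in unstimulated WT (0.63, adjusted p = 0.302). In vivo its cKO and WT libraries overlapped.

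The pathway genes called on stimulation in both genotypes were Socs1, Irf4, Mov10, Gbp5 and Nlrc5. Socs1, which blocks the kinases of the interferon receptors, had 159 and 146 FPKM in stimulated and 18.6 and 24.0 FPKM in unstimulated cKO (2.79, SE 0.16, adjusted p = 0.000887), and 204 and 174 FPKM in stimulated and 23.1 and 22.8 FPKM in unstimulated WT (2.98, SE 0.16, adjusted p = 0.000885). It was the largest of these rises in both. On the log2 scale, Irf4, a factor of T cell receptor signalling, rose by 1.75 in cKO and 1.74 in WT, and Gbp5 by 1.61 in cKO and 1.56 in WT. Mov10, an RNA helicase, rose by 1.56 in cKO and 1.78 in WT, and Nlrc5, the activator of class I antigen presentation genes, by 1.47 in cKO and 1.49 in WT. In cKO, Ifi203, of the interferon-inducible DNA-binding family, also rose, by 1.42 (adjusted p = 0.0495; in WT 1.13, adjusted p = 0.119), and Ikbke, a kinase that activates interferon regulatory factors, fell by 1.46 on the log2 scale (adjusted p = 0.00682). Ikbke had 14.8 and 16.8 FPKM in stimulated and 39.7 and 51.1 FPKM in unstimulated cKO, and 27.5 and 24.1 FPKM in stimulated and 46.5 and 45.4 FPKM in unstimulated WT (-0.81, adjusted p = 0.0558). The interaction called 0 of the 99 genes, with an unadjusted p under 0.05 for 6, beside 3.55% of all genes.

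Socs1 was called in each of 21 alternatives in WT and in 20 in cKO, the exception being the fit without both cKO replicate 1 libraries (adjusted p = 0.129). The cKO calls of Irf4, Mov10, Nlrc5, Gbp5 and Ikbke held in 15 or 16 of 21 and were lost without cKO unstimulated replicate 2, cKO stimulated replicate 1 or cKO stimulated replicate 2, and those of Irf4, Mov10 and Nlrc5 also without cKO unstimulated replicate 1. Ifi203 was called in 9 of 21, and not without any 1 of the 4 cKO libraries or of the 2 stimulated WT libraries. In WT, Irf4 and Mov10 lost their calls without WT stimulated replicate 2, while Gbp5 and Nlrc5 were called in 18 of 21.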

How the data were processed

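The authors deposited FPKM, with 1 column per library, in 2 tables normalized separately, 1 for the 4 in vivo and 1 for the 8 in vitro libraries. HISAT2 2.2.1 and StringTie 2.1.1 and the builds mm10 and hg19 are named, per the submitters' processing notes, with no role; the annotation and filters are not given in the sources used here. Of 16232 Entrez numbers in vivo, 16196 were matched to RefSeq symbols; these columns carry no replicate number, so first and second follow the table. Left unused were 4 other value columns that match none of the samples. FPKM are not counts and total reads are not given, so no count model or counting interval was used, and a 0 can be a failed estimate.

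Each table was tested with limma 3.58.1 in R 4.3.3 (eBayes with trend, two-sided) on log2(FPKM + 1), over genes averaging 1 FPKM or more in the fit. The 8 in vitro libraries shared 1 fit. Adjusted p-values are Benjamini-Hochberg over all genes tested, 10415 in vivo and 10710 in vitro, called under 0.05 with no minimum fold. Fold changes on this scale understate those of low genes. The fit was tested on simulated data. The members, roles and lists were chosen with earlier results of these data known. Named are members called in a contrast and, in each contrast, the 4 with the smallest p among those whose higher group averages at least 5 FPKM, plus called pathway genes and 8 others as values; Rsad2 and Isg20 were added after their values were seen, and other members are given by value or range. Alternatives were the pseudocount, the filter, scaling, removal of haemoglobin genes, the trend, the replicate block, the samples in the fit and leaving out libraries. Coordinates are GRCm38, from GENCODE M21 for genes and RefSeq for promoters. A gene of the pathway list is not reported here.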

Additional observations from a re-analysis of the deposited data

Results flagged for a closer look

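The summed FPKM of the 11 B cell markers was lower in every cKO library than in every WT library in vivo and higher in vitro. It was 19.8 and 28.8 FPKM in cKO and 60.5 and 77.4 FPKM in WT in vivo, against a ratio of cKO over WT group means of 5.65 in unstimulated and 3.74 in stimulated culture. The 14 myeloid markers summed to 269 and 323 FPKM in cKO and 342 and 368 FPKM in WT in vivo, and to 421 and 219 FPKM in cKO and 213 and 218 FPKM in WT in stimulated culture (ratio of means 1.48). The difference between the settings was not tested, since the tables were normalized separately, and neither was the part of these cells in the levels of the interferon-stimulated genes.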

How the results depend on the processing

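For cKO over WT, 0 members were called unstimulated, stimulated and in the interaction under every alternative run, and the member medians stayed above 0 in both genotype contrasts in vitro, from 0.14 to 0.57. In vivo, leaving out 1 library gave 0 to 14 calls and medians from -0.09 to 0.15. Stimulated over unstimulated in cKO, the 4 calls (4.58% of all genes) became 2 with a pseudocount of 0.1 (3.83%). They became 1 with no filter (0.45%) or with eBayes without trend (1.93%). With quantile normalization (5.49%) or a common sum (TPM, 3.69%) they became 7, and with only the 4 samples compared 10 (17.7%). The member median was 0.54 without both WT replicate 2 libraries and 0.47 without both cKO replicate 1 libraries. It ran from 0.35 to 0.81 leaving out 1 library. In WT, the 1 call (2.43% of all genes) became 4 with a floor of 5 FPKM (4.17%), a common sum (2.67%) or haemoglobin genes removed (2.83%). It became 3 with median-of-ratios scaling (2.76%) or quantile normalization (2.8%). Leaving out 1 library, the WT medians ran from 0.16 to 0.54. The interaction of Zbp1 reversed to 0.13 without both WT replicate 2 libraries. The cause was not tested. Leaving out both cKO replicate 1 libraries and the crossed pairing were chosen after seeing the data.

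In vitro nothing in the labels says what a replicate number shares, and it was not taken to pair samples. The replicate differences correlated across genes at 0.42 between the cKO conditions and 0.239 between the WT conditions, a hint of pairing within a genotype, and at 0.04 between stimulated and -0.138 between unstimulated genotypes. With the replicate block, 7 members were called on stimulation in cKO (4.19% of all genes) and 5 in WT (2.69%). No other count of members called changed. With the WT numbers crossed, 4 were called in cKO (5.29%) and 2 in WT (2.51%). In vivo, no paired analysis was possible, since the columns carry no replicate number. The unknown depth limits low members such as Oas2, Ifi44 and Cmpk2 most.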

Other observations

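Among further interferon-induced genes that were not members, 2 relatives of the guanylate-binding members had higher values with stimulation in both genotypes. Gbp6 had 32.1 and 19.2 FPKM in stimulated and 10.6 and 7.43 FPKM in unstimulated cKO (log2 fold change 1.39, limma adjusted p = 0.122), and 34.2 and 12.7 FPKM in stimulated and 8.29 and 11.2 FPKM in unstimulated WT (1.04, adjusted p = 0.262). Gbp4 averaged 21.0 ± 5.64 FPKM in stimulated and 14.8 ± 1.69 FPKM in unstimulated cKO (0.46, adjusted p = 0.301; SD, n = 2), and had 32.9 and 27.1 FPKM in stimulated and 13.9 and 17.8 FPKM in unstimulated WT (0.88, adjusted p = 0.0986). Neither gene passed.

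Psmb9, a subunit of the immunoproteasome, had values on the other side of 0. It stood at 60.7 and 44.3 FPKM in stimulated and 68.3 and 69.3 FPKM in unstimulated cKO (-0.40, adjusted p = 0.438), and at 55.1 and 30.7 FPKM in stimulated and 72.2 and 74.4 FPKM in unstimulated WT (-0.82, adjusted p = 0.16). Tap1, the peptide transporter of class I antigen presentation, overlapped between conditions in both genotypes. Ifit2, a relative of Ifit1, had 2.18 and 2.01 FPKM in stimulated and 4.78 and 5.57 FPKM in unstimulated WT (adjusted p = 0.101), while its cKO groups overlapped.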
